A study of Homo sapiens with 6 samples.

Results

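The genes described are those of the AMP-activated protein kinase (AMPK) and of its upstream kinase LKB1: PRKAA1 and PRKAA2 for the catalytic alpha subunit, PRKAB1 and PRKAB2 for the beta subunit, PRKAG1 and PRKAG2 for the gamma subunit, and STK11 for LKB1. They were chosen by gene symbol, under a rule that uses no measured value but was written with earlier results of these data known, and each of the 7 symbols stood on a single row of a table of 78304 genes. Poly(A) RNA of Huh7 cells was sequenced. Huh7 is a cell line grown from a human hepatocellular carcinoma, and all 6 libraries are labelled wild type. Cells were seeded for 24 h and then received 16'-DEC (3 libraries) or the vehicle DMSO (3 libraries) for 24 h. The compound is known here by this code alone, and the labels state no dose. The study concerns autophagy caused by 16'-DEC in liver cancer, and AMPK is one of the kinases that start autophagy. Nothing in the labels says whether the replicates came from different cultures. The p-values therefore measure only the spread between these libraries, which may be technical.

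AMPK is a heterotrimer of 1 alpha, 1 beta and 1 gamma subunit that senses a fall in cellular energy. The gamma subunit binds AMP, ADP or ATP, the beta subunit holds the complex together and binds glycogen, and the alpha subunit carries the kinase domain, which LKB1 switches on by phosphorylating a threonine of the activation loop. In the liver, active AMPK restrains fatty acid and cholesterol synthesis, inhibits mTORC1 and phosphorylates the autophagy kinase ULK1. This activity is set by phosphorylation and nucleotide binding, neither of which was measured. The values below are transcript levels.

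Levels are TPM, values scaled for gene length and for the total of each library, so the depth behind them is unknown. In each library 13131 to 13459 genes reached 1 TPM with 16'-DEC and 14936 to 15118 with DMSO. Differences are given as 16'-DEC minus DMSO on the log2(TPM + 1) scale, which understates changes of low genes, from a limma fit to the 14275 genes that averaged 1 TPM or more, with Benjamini-Hochberg adjustment over all of them and a threshold of 0.05. The median tested gene lay at -0.31 on this scale and at -0.01 with median-of-ratios scaling, so the differences of the 7 genes are also given relative to the median gene. Differences followed the GC content of the transcripts (Spearman's rho of 0.68 across 13291 genes, which share the same 6 libraries and are not independent). For this reason values adjusted for GC content and transcript length are given too. That adjustment also sets the libraries to a common mean, and a second version, chosen after seeing the data, keeps the mean shift of each library. All 8 hepatocyte and hepatoma markers, such as ALB and AFP, had means of 63.1 TPM or more, and their summed level was 12100 to 12500 TPM with 16'-DEC and 13900 to 14500 TPM with DMSO. Of 6 markers of leukocytes, fibroblasts and endothelium, 1 (CD68, which also encodes a lysosomal membrane protein) had a mean above 1 TPM. The summed level of these 6 was 35.6 to 45.2 TPM with 16'-DEC and 16.8 to 19 TPM with DMSO, and its part in the results was not tested.

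As deposited, both catalytic subunits and PRKAB2 were lower with 16'-DEC, a direction that turned with the adjustment for GC content and length but not when library means were kept, PRKAG1 was higher under every setting, and PRKAB1, PRKAG2 and STK11 did not pass the test. In bulk RNA, fewer cells with a transcript and less of it per cell cannot be told apart. Of the 7 genes, 1 was called higher and 3 lower, where 22.7% of all tested genes were called higher and 48.9% lower. The libraries of the groups did not overlap for the same 4 genes, and did not overlap in 24.3% of all tested genes on the higher side and 51.0% on the lower side. The median of the 7 differences was -0.16, against -0.31 for all tested genes. Adjusted for GC content and length, 1 of the 7 was called higher (PRKAG1) and 1 lower (STK11), where 34.5% of genes were called higher and 31.7% lower. With library means kept, PRKAA2 and PRKAB2 still passed as lower and PRKAA1 did not pass. Over the 19 alternatives, 1 difference, that of PRKAG1, kept its sign and its call in each.

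**Figure D1:**
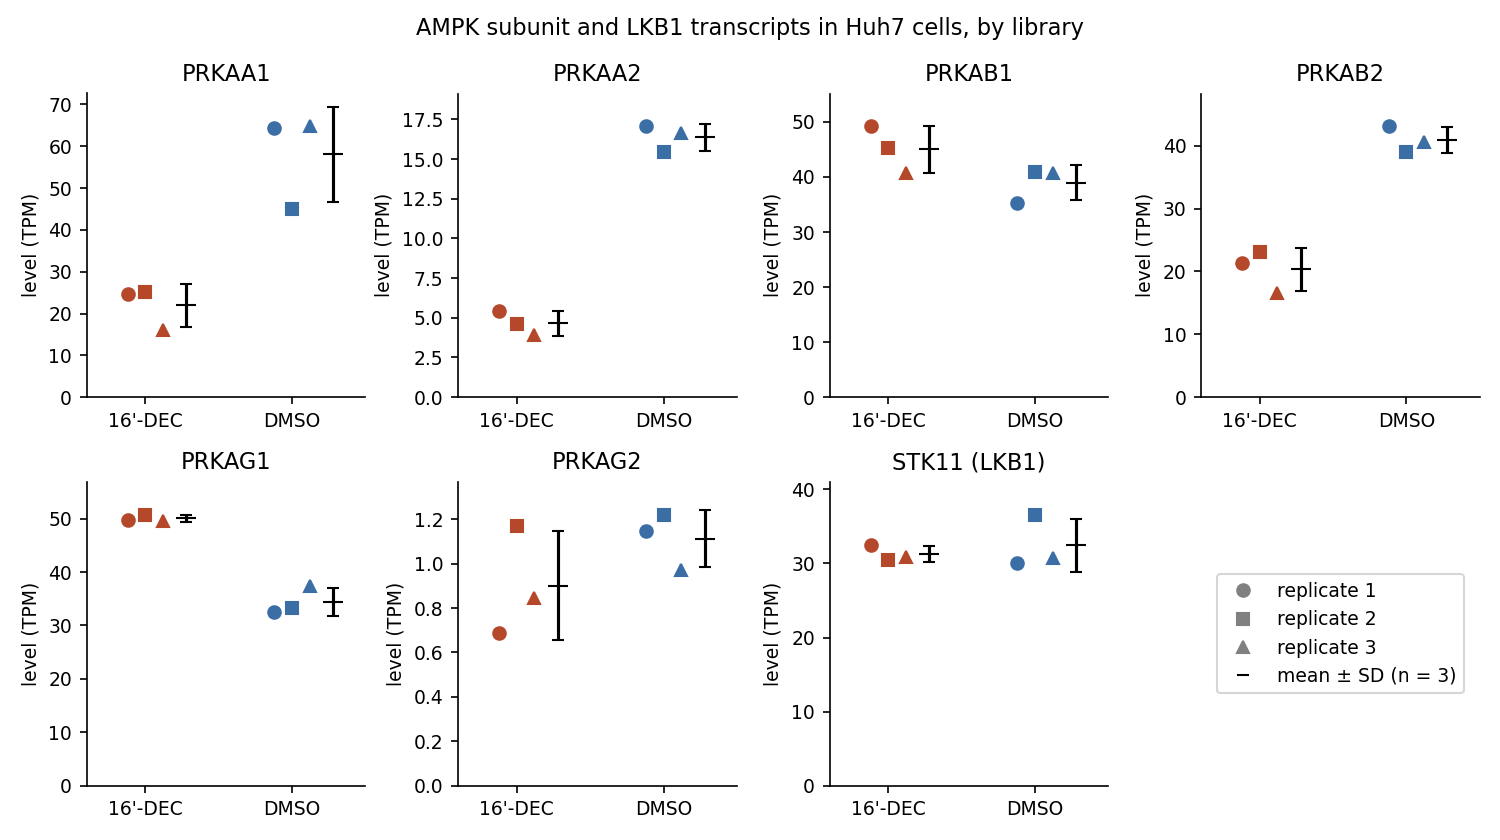
Level in TPM (vertical axis, from 0, a separate scale for each gene) of the 7 genes in the 3 16'-DEC and the 3 DMSO libraries, with 1 symbol per replicate number and the mean ± SD at the right of each group. The 16'-DEC libraries lie below all DMSO libraries for PRKAA1, PRKAA2 and PRKAB2, whose differences turned with the adjustment for GC content and length but not with library means kept, and above them for PRKAG1, and the groups overlap for PRKAB1, PRKAG2 and STK11.

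PRKAA1 encodes alpha 1, the catalytic subunit with the more abundant transcript here. The gene lies on chromosome 5, 40759379 to 40798374, minus strand (ENSG00000132356, GRCh38, GENCODE 29, as for all gene positions). It had 24.7, 25.1 and 15.97 TPM with 16'-DEC, against 64.4, 45.0 and 64.8 TPM with DMSO. The third 16'-DEC library and the second DMSO library were each the lowest of their group, and the groups were well apart. The difference was -1.37 ± 0.194 (SE, n = 3 per group; adjusted p = 0.000207, limma), or -1.06 relative to the median gene. Adjusted for GC content and length it was 0.27 ± 0.167 (adjusted p = 0.186), and -0.11 with library means kept (adjusted p = 0.583), and passed under neither.

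PRKAA2 encodes alpha 2, the other catalytic subunit, and lies on chromosome 1, 56645322 to 56715335, plus strand (ENSG00000162409). It had 5.44, 4.601 and 3.91 TPM with 16'-DEC, against 17.1, 15.4 and 16.6 TPM with DMSO. Every 16'-DEC library lay far below every DMSO library, and the mean was 28.4% of that in DMSO. The difference of -1.63 ± 0.116 (adjusted p = 2.76e-06, limma) was the most negative of the 7, and 8.72% of tested genes had a lower one. It was -1.32 relative to the median gene, and 0.06 ± 0.0635 (adjusted p = 0.44) once adjusted for GC content and length. With library means kept, the adjusted difference was -0.33 (adjusted p = 0.00757) and passed as lower.

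The beta subunit genes parted. PRKAB2, which encodes beta 2 (chromosome 1, 147155106 to 147172550, minus strand; ENSG00000131791), had 21.4, 23.1 and 16.5 TPM with 16'-DEC, against 43.1, 39.0 and 40.5 TPM with DMSO. Its 16'-DEC mean was 49.7% of the DMSO mean, and the difference was -0.99 ± 0.121 (adjusted p = 8.54e-05, limma), or -0.68 relative to the median gene. With the adjustment for GC content and length it stood at 0.13 ± 0.0618 and did not pass (adjusted p = 0.106), and with library means kept it passed as lower, at -0.26 (adjusted p = 0.0262). PRKAB1, which encodes beta 1 (chromosome 12, 119667753 to 119681630, plus strand; ENSG00000111725), had 49.3, 45.2 and 40.7 TPM with 16'-DEC, against 35.3, 40.8 and 40.8 TPM with DMSO. The lowest 16'-DEC library lay just under the upper 2 DMSO libraries. The difference of 0.20 had a 95% interval from -0.02 to 0.42 and did not pass (adjusted p = 0.0912), and it was 0.51 relative to the median gene. PRKAB1 passed as higher without 16'-DEC replicate 3 (0.27, adjusted p = 0.0292) and with either other scaling (0.55 by median of ratios, 0.49 by quantiles). It lay at 0.10 (adjusted p = 0.169) under the GC and length adjustment, and passed as lower, at -0.29 (adjusted p = 0.0131), when that adjustment kept the mean shift of each library. The 5′ end of PRKAB1 overlaps a long non-coding RNA gene on the other strand, AC002070.1, with 4.47 to 7.53 TPM with 16'-DEC and 4.26 to 5.15 TPM with DMSO, and without stated strand use their reads cannot be told apart.

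The gamma transcripts came almost wholly from PRKAG1 (gamma 1, on chromosome 12, 49002274 to 49018825, minus strand, ENSG00000181929). PRKAG1 had 49.8, 50.8 and 49.6 TPM with 16'-DEC, against 32.4, 33.3 and 37.3 TPM with DMSO. The 16'-DEC libraries were nearly equal and all above DMSO, with a mean of 146% of the DMSO mean. PRKAG1 rose by 0.53 ± 0.0795 (adjusted p = 0.00029, limma), or 0.84 relative to the median gene, and 87.4% of tested genes had a lower difference. The value was 0.69 ± 0.0574 (adjusted p = 3.72e-05) after GC and length adjustment and 0.30 ± 0.0713 (adjusted p = 0.00476) when that adjustment kept the mean shift of each library, which was its lowest under any alternative. An antisense gene, DDN-AS1, spans PRKAG1 on the other strand and had 4.24 to 6.997 TPM with 16'-DEC and 4.83 to 9.13 TPM with DMSO. As for PRKAB1, reads from shared stretches cannot be told apart without stated strand use. PRKAG2, which encodes gamma 2 (chromosome 7, 151556111 to 151877125, minus strand; ENSG00000106617), had 0.689, 1.17 and 0.844 TPM with 16'-DEC, against 1.15, 1.22 and 0.969 TPM with DMSO. It passed the filter narrowly, at a mean of 1.01 TPM, and the groups overlapped (-0.16, 95% interval -0.50 to 0.18, adjusted p = 0.364). PRKAG2 was at 0.15 relative to the median gene and at 0.22 (adjusted p = 0.2) after GC and length adjustment. PRKAG3, the gamma 3 gene known mainly from skeletal muscle, was at 0.023 to 0.045 TPM with 16'-DEC and 0.029 to 0.074 TPM with DMSO and was below the filter.

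STK11, the gene of LKB1 (chromosome 19, 1177558 to 1228435, plus strand; ENSG00000118046), had 32.6, 30.5 and 30.9 TPM with 16'-DEC, against 30.1, 36.6 and 30.7 TPM with DMSO. The groups overlapped, and the difference of -0.05 ± 0.0932 did not pass (95% interval -0.26 to 0.17, adjusted p = 0.68, limma), while relative to the median gene it was 0.26. Its direction depended on the processing. It passed as higher with median-of-ratios scaling (0.30, adjusted p = 0.0158) and quantile normalization (0.30, adjusted p = 0.0147), and as lower after GC and length adjustment (-0.33, adjusted p = 0.00174; -0.71 with library means kept). It also turned to 0.04, without passing, when DMSO replicate 2, its highest library, was left out.

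**Figure D2:**
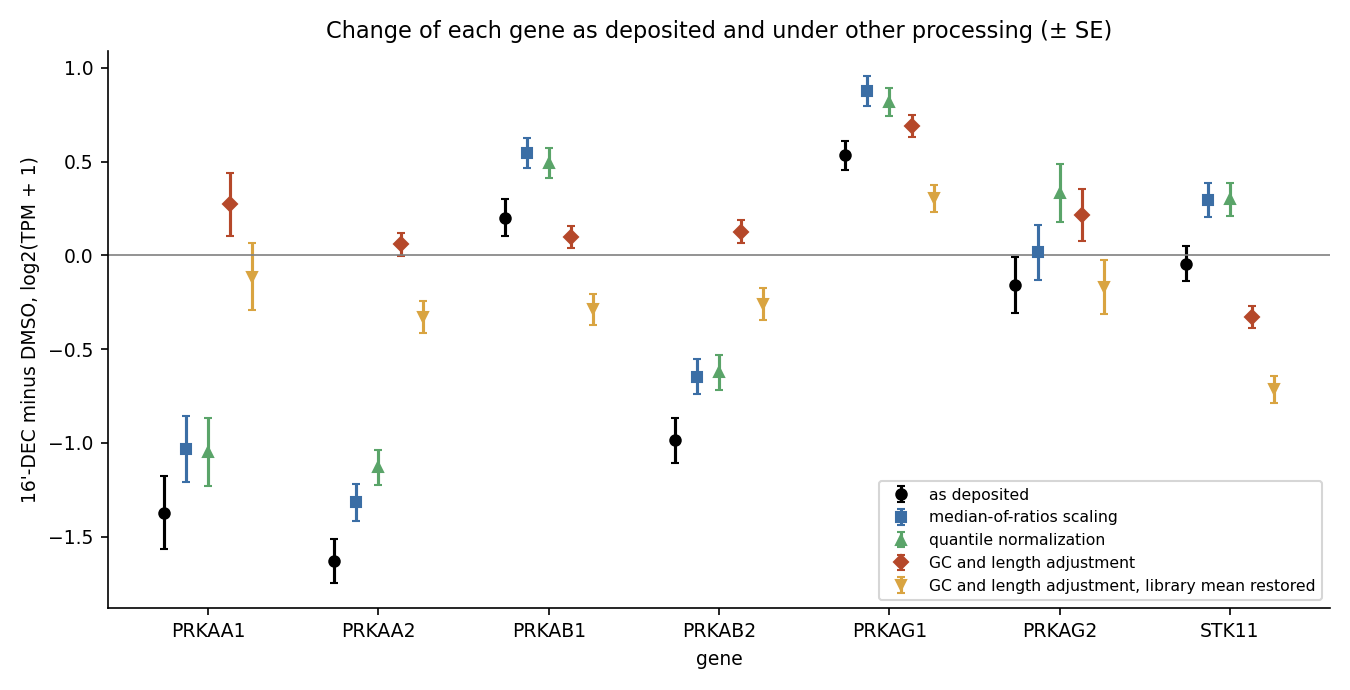
Difference between 16'-DEC and DMSO (vertical axis, log2(TPM + 1) scale, ± SE) of each gene as deposited, after scaling by median of ratios, after quantile normalization, and adjusted for GC content and length without and with the mean of each library restored. PRKAG1 lies above 0 in all 5, from 0.30 to 0.88, while PRKAA1 runs from -1.37 as deposited to 0.27 and STK11 from -0.71 to 0.30.

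The lower differences belonged to the GC-poor transcripts. The selected transcripts of PRKAA2 and PRKAA1 had 35.2% and 35.3% GC, those of PRKAB2 41.4%, PRKAG2 46.7%, PRKAG1 48.0%, PRKAB1 54.2% and STK11 63.2%. Over all annotated transcripts, GC ran from 33.49 to 49.88% for PRKAA1, 34.84 to 35.2% for PRKAA2 and 41.35 to 54.84% for PRKAB2. It ran from 44.85 to 50.3% for PRKAG1, 36.7 to 61.91% for PRKAG2, 44.8 to 65.12% for PRKAB1 and 54.96 to 66.65% for STK11. Which transcripts were expressed was not measured, and the classes, bins and adjusted values rest on the selected ones. Among the 1968 tested genes with under 40% GC, where both alpha genes stood, the median difference was -1.46, and 93.4% were called lower. Among the 5154 genes with 40 to 50% GC, which held PRKAB2 and both gamma genes, 66.4% were called lower and 10.2%, PRKAG1 among them, higher. In narrower bins, PRKAA1 and PRKAA2 lay beside a median of -1.62 (560 genes with 35 to 37.5% GC) and PRKAB2 beside -0.997 (1427 genes with 40 to 42.5%). PRKAG1 at 0.53 lay above the upper quartile of 0.19 of its bin (1081 genes with 47.5 to 50%), and STK11 at -0.05 lay just below the lower quartile of -0.04 of its own (653 genes with 62.5 to 65%). The transcripts of PRKAA2 (9347 nt), PRKAB2 (5417 nt) and PRKAA1 (5088 nt) were also the longest of the 7, and that of PRKAG1 (1699 nt) the shortest. Whether the differences come from GC content or length was not tested.

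**Figure D3:**
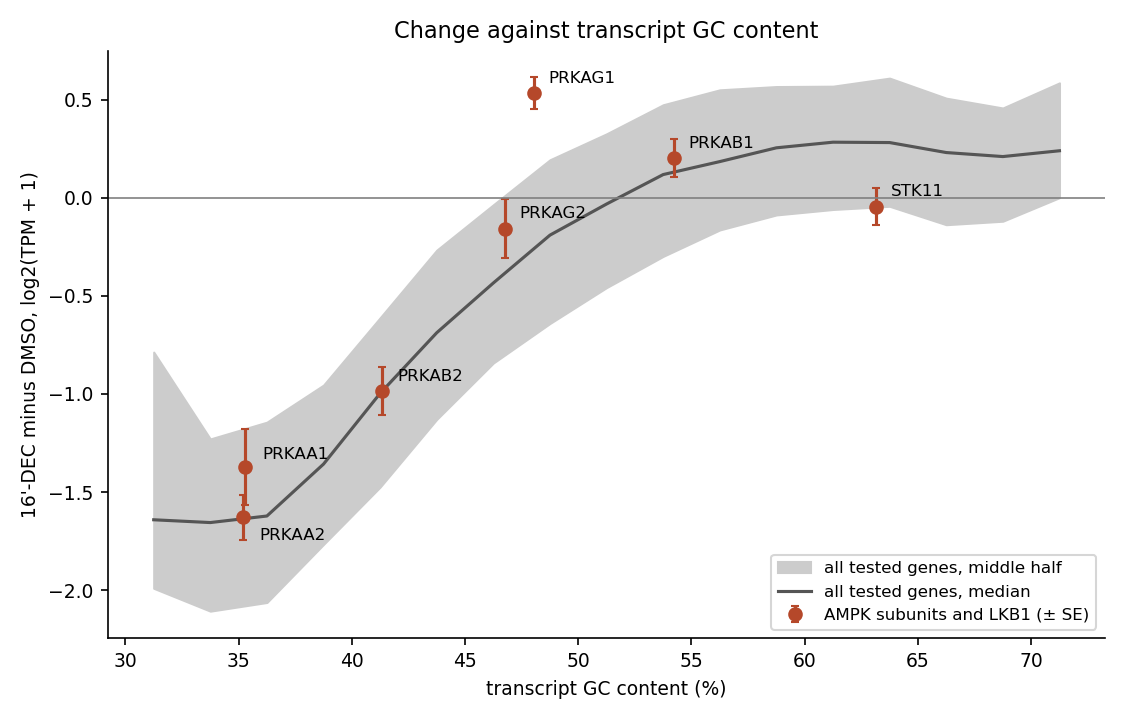
Difference between 16'-DEC and DMSO (vertical axis, log2(TPM + 1) scale) against transcript GC content (horizontal axis, %) for the 7 genes (points, ± SE), over the median (line) and range between quartiles (band) of all tested genes in bins of 2.5% GC. PRKAA1, PRKAA2, PRKAB2, PRKAB1 and PRKAG2 lie within the band, PRKAG1 above it and STK11 at its lower edge. GC content is that of 1 selected transcript per gene.

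The GC-poor transcripts did not go with GC-poor promoters. In the window around the RefSeq start (coordinates in GRCh38.p14), PRKAA1 had 77.0% GC, PRKAA2 82.7% and PRKAB2 68.7%, PRKAG1 had 61.7%, and the median of 35116 RefSeq promoters was 58.7%. All 7 genes matched an entry, PRKAG2 with 5 starts. Both strands were searched for the GC box GGGCGG, the CCAAT box CCAAT, the E-box CACGTG, the cAMP response element TGACGTCA and the TATA box TATAAA, which occurred in 45.0%, 34.6%, 7.3%, 1.8% and 11.5% of all promoters. The promoters of the 3 genes that were lower as deposited and of PRKAG1 are shown because these are the genes whose libraries did not overlap, 5′ to 3′ on the strand of the gene with each GC box, or its reverse complement, in capitals. They are PRKAA1 (chr5:40798128-40798427, minus strand), PRKAA2 (chr1:56645064-56645363, plus strand), PRKAB2 (chr1:147172421-147172720, minus strand) and PRKAG1 (chr12:49018727-49019026, minus strand).
PRKAA1: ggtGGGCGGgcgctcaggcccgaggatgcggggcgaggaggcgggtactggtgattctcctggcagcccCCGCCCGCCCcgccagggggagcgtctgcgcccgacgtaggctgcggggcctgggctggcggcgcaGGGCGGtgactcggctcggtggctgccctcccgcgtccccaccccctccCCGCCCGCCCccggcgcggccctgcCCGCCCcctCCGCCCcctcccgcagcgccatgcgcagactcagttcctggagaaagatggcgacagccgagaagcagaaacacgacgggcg
PRKAA2: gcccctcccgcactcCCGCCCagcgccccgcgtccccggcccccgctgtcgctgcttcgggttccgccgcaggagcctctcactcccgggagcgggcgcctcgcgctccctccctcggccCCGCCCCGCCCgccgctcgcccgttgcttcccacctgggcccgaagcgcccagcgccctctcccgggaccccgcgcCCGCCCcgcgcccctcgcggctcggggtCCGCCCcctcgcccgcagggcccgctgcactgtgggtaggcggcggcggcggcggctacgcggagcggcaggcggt
PRKAB2: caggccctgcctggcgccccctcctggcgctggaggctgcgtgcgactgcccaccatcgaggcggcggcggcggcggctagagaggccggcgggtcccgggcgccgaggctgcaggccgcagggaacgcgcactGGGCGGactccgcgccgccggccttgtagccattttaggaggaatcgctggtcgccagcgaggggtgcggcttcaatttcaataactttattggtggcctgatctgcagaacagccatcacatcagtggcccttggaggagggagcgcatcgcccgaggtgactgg
PRKAG1: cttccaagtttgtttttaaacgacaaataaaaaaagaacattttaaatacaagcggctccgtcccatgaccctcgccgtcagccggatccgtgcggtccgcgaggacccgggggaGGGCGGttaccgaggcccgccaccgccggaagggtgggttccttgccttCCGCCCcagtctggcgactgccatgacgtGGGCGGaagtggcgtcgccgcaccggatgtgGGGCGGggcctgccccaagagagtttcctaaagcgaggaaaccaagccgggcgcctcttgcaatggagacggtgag

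PRKAA1 held 8 GC boxes, of which 2 pairs overlapped, PRKAA2 5 (1 pair overlapping), PRKAB2 1 and PRKAG1 4. PRKAB2 also held 1 CCAAT box, and no 2 kinds of motif shared a base. The E-box, cAMP response element and TATA box letters were in none of the windows of the 7 genes. Elsewhere STK11 held 2 GC boxes and 3 CCAAT boxes and PRKAB1 none of either. These are matches of letters, and say nothing of binding.

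The balance between the 2 paralogs of a subunit does not depend on a single scaling factor per library, and was compared as the log2 ratio of their TPM. PRKAB1 made up 69.7, 66.2 and 71.1% of the summed beta level with 16'-DEC, against 45.0, 51.1 and 50.2% with DMSO. The beta transcripts were thus near parity in DMSO, with 0.952 PRKAB1 transcripts per PRKAB2 transcript, while 16'-DEC libraries had 2.23. PRKAA1 made up 82.0, 84.5 and 80.3% of the alpha level with 16'-DEC and 79.0, 74.5 and 79.6% with DMSO. PRKAA1 was thus the major alpha transcript in all 6 libraries. Shares between genes rest on the gene lengths behind the TPM, which no source used here states, and protein was not measured. PRKAG1 made up 98.6, 97.8 and 98.3% of the gamma level with 16'-DEC and 96.6, 96.5 and 97.5% with DMSO. The differences in log2 ratio were 1.23 for beta, 0.41 for alpha and 0.88 for gamma, with no overlap between groups in any of them. Among single tested genes, 24.3% did not overlap on the higher side and 51.0% on the lower side. The share for ratios of other gene pairs was not computed. Each gave an exact permutation p of 0.1 (2-sided, also 0.1 after Benjamini-Hochberg adjustment over the 3 ratios), the smallest that 3 against 3 libraries allow, so none could pass the threshold. After the adjustment for GC content and length the beta difference was -0.03 (exact permutation p = 0.6), that of alpha 0.22 and that of gamma 0.28 (p = 0.4 for both, exact permutation). The gamma ratio rests on the low level of PRKAG2.

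**Figure D4:**
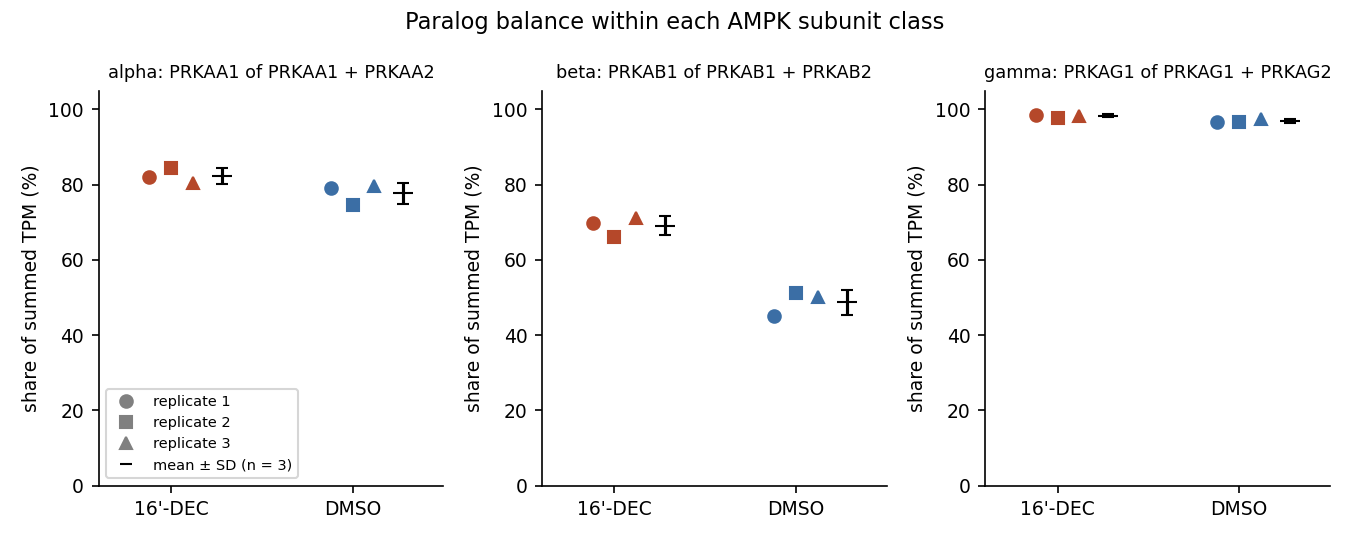
Share (vertical axis, %) of the summed TPM of each subunit class that came from PRKAA1, PRKAB1 or PRKAG1 in each 16'-DEC and DMSO library, with the mean ± SD. The beta difference, which was -0.03 after adjustment for GC content and length, was the largest, and the beta share was 69.0% ± 2.56 with 16'-DEC and 48.8% ± 3.28 with DMSO, the alpha share 82.3% ± 2.1 with 16'-DEC and 77.7% ± 2.81 with DMSO, and the gamma share 98.2% ± 0.449 with 16'-DEC and 96.8% ± 0.551 with DMSO.

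Summed over paralogs, a comparison chosen after the values were seen, the alpha transcripts had 30.2, 29.7 and 19.9 TPM with 16'-DEC and 81.4, 60.4 and 81.5 TPM with DMSO. Beta transcripts had 70.6, 68.3 and 57.2 TPM with 16'-DEC and 78.4, 79.9 and 81.3 TPM with DMSO, and gamma transcripts 50.5, 51.9 and 50.4 TPM with 16'-DEC and 33.6, 34.5 and 38.3 TPM with DMSO. The order from high to low was beta, gamma, alpha in every 16'-DEC library, while gamma was lowest in all 3 DMSO libraries. The catalytic transcripts amounted to 0.521 ± 0.111 per gamma transcript with 16'-DEC and 2.1 ± 0.338 with DMSO (SD, n = 3 each; exact permutation p = 0.1, the smallest possible). Per beta transcript they amounted to 0.403 ± 0.0484 with 16'-DEC and 0.932 ± 0.153 with DMSO (exact permutation p = 0.1). In log2 these ratios differed by -2.02 and -1.20, and after the GC and length adjustment by -0.46 and 0.12.

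**Figure D5:**
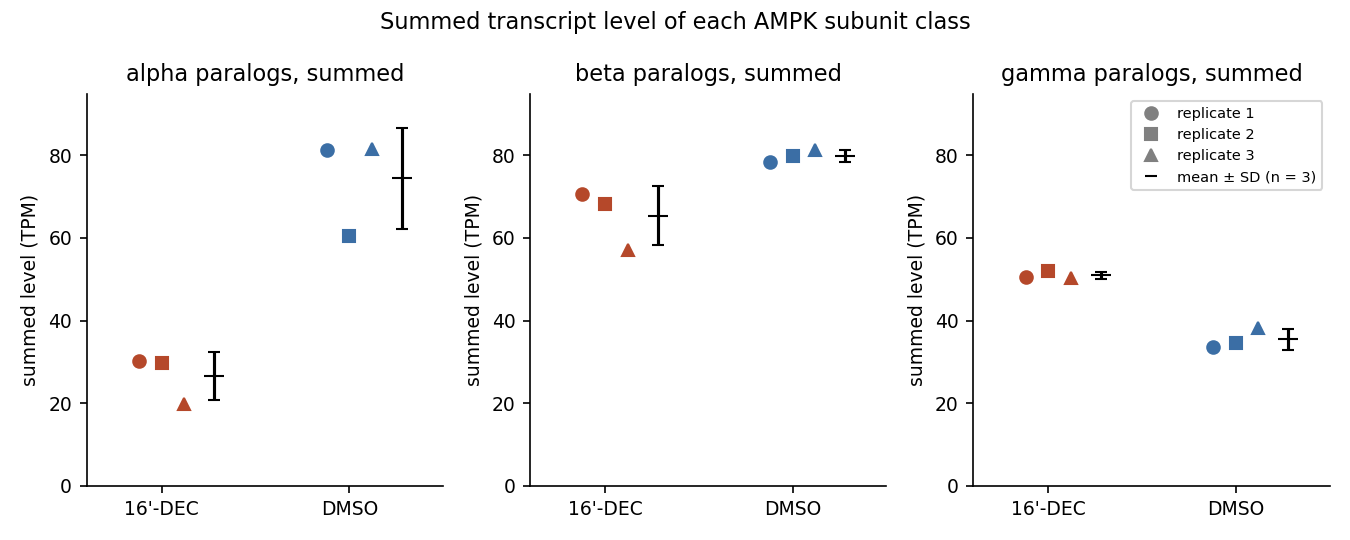
Summed level (vertical axis, TPM, from 0) of the alpha, beta and gamma paralogs in each 16'-DEC and DMSO library, with the mean ± SD. The alpha sum was 26.6 ± 5.82 TPM with 16'-DEC and 74.4 ± 12.2 TPM with DMSO, the beta sum 65.4 ± 7.18 TPM with 16'-DEC and 79.9 ± 1.44 TPM with DMSO, and the gamma sum 51 ± 0.843 TPM with 16'-DEC and 35.5 ± 2.51 TPM with DMSO.

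By single genes, the levels in 16'-DEC ran in the order PRKAG1, PRKAB1, STK11, PRKAA1, PRKAB2, PRKAA2 and PRKAG2, and the libraries of PRKAA1 and PRKAB2 overlapped while the other neighbours did not. In DMSO the order was PRKAA1, PRKAB2, PRKAB1, PRKAG1, STK11, PRKAA2 and PRKAG2, and the 4 genes from PRKAB2 to STK11 overlapped each with the next. The genes most like PRKAA1, PRKAA2 and PRKAG1 over the 6 libraries, by the root mean square difference between log2(TPM + 1) profiles centred on each gene's mean, were PDZD8 (0.067), GXYLT1 (0.0284) and KCTD11 (0.0179). DHX34 was nearest to PRKAB1 (0.0238), ANKRD36C to PRKAB2 (0.0238), TMED6 to PRKAG2 (0.0388) and CLN6 to STK11 (0.0238). With 2 groups, a gene is near another chiefly where the group difference is alike.

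LKB1 works in a complex with a pseudokinase (STRADA or STRADB) and a scaffold (CAB39 or CAB39L). Of these 4 partners, 0 rose and 3 fell as deposited (median -0.49), where 22.7% of all tested genes were called higher and 48.9% lower (median -0.31). CAB39 had 28.7, 33.6 and 28.9 TPM with 16'-DEC, against 75.7, 75.8 and 70.1 TPM with DMSO, a difference of -1.26 ± 0.0862 (adjusted p = 2.19e-06, limma) that stood at -0.25 (adjusted p = 0.00913) after GC and length adjustment. STRADB fell by 0.59 (adjusted p = 0.000524) but was at -0.10 (adjusted p = 0.344) after it. CAB39L fell by 0.39 (adjusted p = 0.00836) as deposited, was higher by 0.44 (adjusted p = 0.00197) with that adjustment and stood at 0.15 with quantile normalization. STRADA, at -0.20, did not pass as deposited. It passed as higher with quantile normalization (0.28, adjusted p = 0.0174) and as lower, at -0.31 (adjusted p = 0.0163), after GC and length adjustment.

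Other kinases can also activate AMPK. Of 3 listed, 2 passed the filter, 0 rose and 1 fell, where 22.7% of all tested genes were called higher and 48.9% lower. MAP3K7 (TAK1) had 13 ± 0.689 TPM with 16'-DEC and 39.7 ± 2.61 TPM with DMSO (-1.54 ± 0.0854, adjusted p = 6.83e-07, limma), and was at -0.15 (adjusted p = 0.0483) after GC and length adjustment. CAMKK2, the calcium-dependent kinase that phosphorylates AMPK, had 15.3 ± 1.38 TPM with 16'-DEC and 15.7 ± 0.434 TPM with DMSO and did not pass (adjusted p = 0.706). CAMKK2 passed as higher when scaled by median of ratios (0.29, adjusted p = 0.00423) or by quantiles (0.42, adjusted p = 0.000531), did not pass after GC and length adjustment (0.05), and passed as lower with library means kept (-0.33, adjusted p = 0.00185). Among 3 genes that oppose AMPK, 2 passed the filter. UBE2O, a ubiquitin ligase that targets alpha 2, rose by 0.43 (adjusted p = 0.00833) and by 0.32 (adjusted p = 0.00117) after GC and length adjustment, but was at -0.07 when that adjustment kept the library means. PPM1A, a phosphatase that acts on AMPK, fell by 0.39 (adjusted p = 0.00476) as deposited and was higher by 1.24 (adjusted p = 1.26e-05) after GC and length adjustment.

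LKB1 also activates a family of kinases related to AMPK. Of 12 listed, 11 passed the filter, 2 rose, 3 fell and 6 did not pass (median 0.09). Among all tested genes 22.7% were called higher and 48.9% lower (median -0.31). The median GC content of the 11 selected transcripts was 56.9%, against 48.8% for all tested genes with a matched transcript. MARK3, a kinase of cell polarity, fell by 0.88 (adjusted p = 1.93e-05, limma) and by 0.61 after GC and length adjustment. SNRK fell by 1.07 and SIK2, a salt-inducible kinase, by 0.67 (adjusted p = 3.33e-05 and 0.00103), and they were at -0.30 and -0.37 with that adjustment. SIK2 did not pass with quantile normalization (-0.15, adjusted p = 0.197). MARK2 and MARK4 rose by 0.41 and 0.39 (adjusted p = 0.0105 and 0.0209) but did not pass with it (0.17 and 0.20) and were at -0.21 and -0.19 when it kept the library means. MARK4 also missed the threshold with 16'-DEC replicate 1, DMSO replicate 1 or DMSO replicate 3 left out (adjusted p from 0.0519 to 0.0636). With median-of-ratios scaling 7 of the 11 were higher and 3 lower, where 5290 of all 14275 tested genes were higher and 5376 lower.

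Substrates of AMPK in lipid and sugar metabolism went both ways. Of 14 listed, 12 passed the filter, 2 rose, 4 fell and 6 did not pass (median -0.11). Among all tested genes 22.7% were called higher and 48.9% lower (median -0.31). TBC1D4, a regulator of glucose transporter traffic, had 15.2 ± 1.94 TPM with 16'-DEC and 47.1 ± 2.48 TPM with DMSO (-1.58 ± 0.104, adjusted p = 1.72e-06, limma; -1.14 after GC and length adjustment). MLXIPL (ChREBP), a glucose-responsive activator of lipid synthesis, fell by 1.05 (adjusted p = 2.28e-05; -1.26 with the adjustment). ACACA and ACACB encode the acetyl-CoA carboxylases, the enzymes whose phosphorylation is the usual readout of AMPK. ACACA rose by 0.31 (adjusted p = 0.0312; 0.67 with the adjustment) and ACACB fell by 0.57 (adjusted p = 0.03; -0.52 with it), but ACACA missed the threshold when 16'-DEC replicate 1 or 2 or DMSO replicate 1 or 3 was left out (adjusted p from 0.068 to 0.11). ACACB missed it when 16'-DEC replicate 3 or DMSO replicate 1 or 3 was left out (adjusted p from 0.0517 to 0.111), and with either other scaling. PNPLA2, a triglyceride lipase, rose by 0.43 (adjusted p = 0.0217), but its groups overlapped, and it was at 0.16 after GC and length adjustment and at -0.23 with library means kept. It missed the threshold when 16'-DEC replicate 1 or 3 or DMSO replicate 1 or 3 was left out (adjusted p from 0.0531 to 0.083).

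Among substrates in mTORC1 control, autophagy and mitochondrial fission, 9 of 10 passed the filter, 3 rose, 4 fell and 2 did not pass (median -0.03). The shares of all tested genes were 22.7% higher and 48.9% lower (median -0.31). FNIP1, a folliculin partner through which AMPK acts on lysosomal genes, fell by 1.58 (adjusted p = 3.74e-06, limma; -0.72 with the GC and length adjustment). ATG9A, the lipid scramblase of autophagosome growth, rose by 0.52 (adjusted p = 0.00198; 0.35 with it) but was at -0.03 when the adjustment kept the library means. ULK1 rose by 0.44 as deposited and passed after the adjustment (adjusted p = 0.0128), but was at -0.07 under that last setting. PIK3C3, the lipid kinase VPS34, fell by 0.36 (adjusted p = 0.00153) but was higher by 1.10 (adjusted p = 2.07e-05) after the adjustment, and BECN1, its partner, fell by 0.34 as deposited, did not pass after it and was at 0.0045 when scaled by median of ratios. Among 8 substrates in transcription, all above the filter, 1 rose, 5 fell and 2 did not pass (median -0.65). These counts stand beside the same shares of all tested genes. CRY1, a repressor of the circadian clock, had 11.8 ± 1.13 TPM with 16'-DEC and 32.9 ± 1.53 TPM with DMSO (-1.41 ± 0.0915, adjusted p = 1.63e-06; -1.11 with the adjustment). FOXO3 fell by 0.79 (adjusted p = 0.000229; -0.49 with it) and PPARGC1A, a coactivator of mitochondrial genes, by 1.93 (adjusted p = 2.14e-06; -0.71 with it), and HDAC5, a class II histone deacetylase, rose by 0.87 (adjusted p = 3.74e-05; 0.73 with the adjustment).

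At the lysosome, LKB1 and AMPK meet on a scaffold of AXIN1 and the Ragulator complex. Of these 6 genes 4 rose, 1 fell and 1 did not pass (median 0.42). Among all tested genes 22.7% were called higher and 48.9% lower (median -0.31). The median GC content of the 6 selected transcripts was 57.6%, against 48.8% for all tested genes with a matched transcript. Among tested genes with 50 to 60% GC, 39.8% were called higher and 22.2% lower (median 0.14). The part of GC content in these counts was not tested. LAMTOR4, LAMTOR2 and LAMTOR1 rose by 0.65, 0.57 and 0.53 (adjusted p = 0.000261, 0.000557 and 0.000684, limma) and by 0.37, 0.33 and 0.28 after GC and length adjustment (adjusted p = 0.000472, 0.00153 and 0.00208), but lay between -0.11 and -0.02 when that adjustment kept the library means. LAMTOR3 fell to 41.8 ± 0.577 TPM with 16'-DEC, against 142 ± 11.2 TPM with DMSO (-1.74 ± 0.0788, adjusted p = 2.6e-07; -0.28 after the adjustment), while AXIN1, at 0.05, did not pass. AXIN1 passed as higher when scaled by median of ratios (0.39, adjusted p = 0.0013) or by quantiles (0.46, adjusted p = 0.00055) and as lower after GC and length adjustment (-0.13, adjusted p = 0.0413). Adenylate kinases set the AMP level that AMPK reads, and AMP deaminases lower it. Of 9 such genes 7 passed the filter, 3 rose, 2 fell and 2 did not pass (median 0.09). The cytosolic AK1 rose by 0.58 (adjusted p = 0.00388) as deposited and by 0.30 (adjusted p = 0.0227) after GC and length adjustment, but was at -0.09 with the library means kept. AMPD3 rose by 0.64 (adjusted p = 0.00487; 0.71 with the adjustment) but did not pass with library means kept (0.32, adjusted p = 0.084). AK3, of the mitochondrial matrix, fell by 1.55 (-0.56 with it), and AK6, a nuclear protein whose gene overlaps TAF9 so that reads may be shared, fell by 1.96 (-0.60 with it). Over the 9 lists together, 16 of 61 tested genes were higher and 24 lower as deposited, where 22.7% and 48.9% of all tested genes were. The share called lower was thus below that of all tested genes, and the lists' median was -0.04, against -0.31. The median GC content of the 61 selected transcripts was 53.1%, against 48.8% for all tested genes with a matched transcript. By list it ran from 44.0% (LKB1 partners) to 57.6% (lysosomal scaffold). After GC and length adjustment 22 were higher and 20 lower, against 34.5% and 31.7% of all genes, so the adjusted shares lay near the background.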

How the data were processed

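The authors deposited 1 table of TPM values with a column per library, each summing to 1000000; depth cannot be recovered from them. The submitters' processing notes list HISAT2 2.0.1, HTSeq 0.6.1, cutadapt 1.9.1, GRCh38 and DESeq2, with no role or order, and no source used here states the gene annotation or lengths. Per the labels' protocols, libraries were poly(A)-selected and primed at random, with no strand marking described. No pair of libraries shared more than 0.063% of identical values.

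The 14275 genes that averaged 1 TPM or more were fitted with limma (version 3.58.1, R 4.3.3) on log2(TPM + 1): eBayes with a mean trend, 2-sided, Benjamini-Hochberg adjustment, threshold 0.05. The fit was tested on simulated data. Single ratios had exact permutation tests over libraries. GC content and length came from 1 GENCODE 29 transcript per gene (APPRIS principal, then basic; 93.1% of tested genes matched), and natural splines of both (5 degrees of freedom each) were removed from each library's deviations. This also re-centres the libraries, so a version that restores their means was added after seeing the data. Further alternatives changed the pseudocount (0.1 or 5), the filter (none, or 5 TPM), the scaling (median of ratios, or quantiles), the mean trend, or the weights of libraries. Others dropped mitochondrially encoded genes or 1 library at a time, or blocked on replicate number. Members and lists were chosen with earlier results of these data known. From each list the text names the genes with the smallest adjusted p, up to 3 in the more frequent direction and up to 2 in the opposite one, and, chosen after their values were seen, STRADA, CAMKK2 and AXIN1. The result of 1 gene that this rule names is not reported here. Figures were drawn with matplotlib 3.10.9.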

Additional observations from a re-analysis of the deposited data

How the results depend on the processing

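Over the 19 alternatives, 110 member differences kept their sign and side of the threshold, and 14 turned in sign, with or without a change of call. Of those that kept their sign, 7 newly passed and 1 no longer did. The causes were not tested. With GC and length adjustment, PRKAA1 turned to 0.27, PRKAA2 to 0.0585, PRKAB2 to 0.13 and PRKAG2 to 0.22, STK11 passed at -0.33, and the counts were 1 member lower and 4213 genes lower; the replicate block together with this adjustment gave the same differences, 1 member lower and 3982 genes lower. With library means restored, PRKAA2 (-0.33) and PRKAB2 (-0.26) still passed as lower, PRKAA1 did not pass (-0.11), PRKAB1 turned to -0.29, STK11 passed at -0.71, and 7 pathway genes and 1797 genes were higher. Median-of-ratios scaling put PRKAB1 at 0.55 and STK11 at 0.30, both passing, and PRKAG2 at 0.0165, with 3 members, 33 pathway genes and 5290 genes higher. Quantile normalization put PRKAB1 at 0.49 and STK11 at 0.30, both passing, and PRKAG2 at 0.33, with 3 members, 35 pathway genes and 5990 genes higher and 14 pathway genes lower. Array weights let PRKAB1 pass (0.23), for 2 members higher, where 3580 of 14275 tested genes were higher. Without 1 library, PRKAB1 ran from 0.13 to 0.27, STK11 from -0.0964 to 0.0416 and the members called higher from 1 to 2. In these fits 2773 to 3426 of 14275 tested genes were higher. The settings adjusted for GC content and length tested 13291 genes, and the 2 other scalings 14275. PRKAG2 gave no value with a mean of at least 5 TPM.

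Among named pathway genes, 583 differences kept their sign and side of the threshold and 39 kept the sign but no longer passed. CAB39L turned to 0.15 with quantile normalization, 0.44 with GC and length adjustment and 0.0487 with library means restored, PPM1A to 1.24 and 0.85 and PIK3C3 to 1.10 and 0.71 with these 2 adjustments, and BECN1 to 0.0045 with median-of-ratios scaling. With library means restored, UBE2O turned to -0.0692, MARK2 to -0.21, MARK4 to -0.19, PNPLA2 to -0.23, ATG9A to -0.0321, ULK1 to -0.0714, LAMTOR4 to -0.0191, LAMTOR2 to -0.0523, LAMTOR1 to -0.11 and AK1 to -0.087. With GC and length adjustment the beta balance turned to -0.0302 and the alpha to beta ratio of sums to 0.12.

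Libraries with the same replicate number did not deviate together (correlations of 0.0941, -0.182 and -0.0726 for numbers 1, 2 and 3), so they were not taken as pairs. The replicate block left 1 member higher and 3 lower, with 3014 genes higher and 6823 lower.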
